A study of Mus musculus with 6 samples.

Results

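The genes described here encode 8 secreted proteins of the extracellular matrix: periostin (Postn), tenascin C (Tnc), versican (Vcan), thrombospondins 1 and 2 (Thbs1, Thbs2), fibronectin (Fn1), and the CCN proteins Ctgf (now Ccn2) and Cyr61 (now Ccn1). They were chosen by name, as every probe set annotated to exactly 1 gene that is 1 of these 8. A probe set is a group of short array probes that reads 1 transcript. The rule found 23 probe sets for the 8 genes, among 18193 genes with such a probe set on the array. Vcan had 8 probe sets, Cyr61 had 4, Thbs2 had 3, Tnc, Thbs1 and Fn1 had 2 each, and Postn and Ctgf had 1 each. One further probe set is annotated to Thbs1 together with another gene and was left out by the rule.

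Matricellular proteins are secreted into the matrix and act mainly on cells, by binding integrins, growth factors and other matrix molecules, and not as structural fibres. Periostin is known from the periosteum, the cell layer around bone, and CCN and thrombospondin genes are known targets of TGF-beta signalling and of the mechanosensitive regulators YAP and TAZ. Fibronectin and versican are not matricellular in the strict sense: fibronectin forms adhesive fibrils that cells hold through integrins, and versican is a large chondroitin sulphate proteoglycan that binds hyaluronan.

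The knockout group was 3 arrays of osteocytes from ERαΔOcy/ΔOcy mice, in which estrogen receptor alpha (ERα) is deleted in osteocytes, the cells embedded in bone. The control group was 3 arrays from littermates, labelled wild type and given as floxed for ERα in the extraction protocol. Both groups were female C57/BL6 mice of 10 to 12 days that carried Dmp1-GFP, a green fluorescent reporter under the Dmp1 promoter, and the cells were released from the calvaria by serial enzyme digestion and sorted for fluorescence. The labels name neither the Cre driver of the deletion nor whether control mice carried Cre, so effects of Cre and of ERα loss cannot be told apart. The design text says that RNA stayed unpooled, but the protocol mentions pooled calvarial tissue, so the p-values measure the spread between arrays, which may be less than that between mice. The comparison asks which osteocyte transcripts differ without ERα.

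All values are log2 levels, that is log2(signal + 16) of the deposited intensity after quantile normalisation, and a difference is knockout minus control on that scale. Esr1, the gene of ERα, was read by 3 probe sets. In the brightest the log2 levels were 6.64, 6.61 and 6.83 for knockout and 6.98, 6.90 and 6.81 for control, and these groups overlapped. In the dimmest the deposited signals were 1.0, 1.0 and 2.5 for knockout and 20.2, 11.6 and 13.3 for control, which did not overlap. The part of Esr1 that was deleted is not named in the labels, so this gene does not check them. Of 12 tested osteocyte markers 4 were higher and 8 lower. Dmp1, an osteocyte matrix protein whose promoter drove the sorting marker, had a mean log2 level of 12.56 ± 0.14 in knockout and 12.85 ± 0.16 in control arrays (SD, n = 3 each). Across the tested genes, Pearson's r was 0.984 to 0.988 between knockout arrays and 0.939 to 0.969 between control arrays. Control replicate 2 stood apart from the other controls, with a summed deposited signal of 15 skeletal muscle markers of 233.3, against 39065.3 and 33212.1 in control replicates 1 and 3 and 4797.7 to 22390.7 in knockout arrays. Its r was 0.962 to 0.974 with the knockout arrays, against 0.939 and 0.953 with control replicates 1 and 3. Results that rest on control replicate 2 are therefore given with and without it. Fits without it leave out the control most like knockout replicates 1 and 2 and keep the controls with the highest muscle signal.

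The promoters of 4 of the genes are shown because they cover the members whose groups were apart (Tnc and Vcan), the thrombospondin with the higher values (Thbs2) and the only gene whose difference was negative (Cyr61). Each is the 300 bases from 250 before to 50 after an annotated transcript start, read 5′ to 3′ along the gene, from RefSeq on GRCm38.p6. Capitals mark letters that match a searched motif on either strand. The windows are chr4:64046887-64047186 for the downstream start of Tnc, chr13:89742463-89742762 for Vcan, chr17:14694213-14694512 for Thbs2 and chr3:145649936-145650235 for Cyr61, all on the minus strand.
Tnc: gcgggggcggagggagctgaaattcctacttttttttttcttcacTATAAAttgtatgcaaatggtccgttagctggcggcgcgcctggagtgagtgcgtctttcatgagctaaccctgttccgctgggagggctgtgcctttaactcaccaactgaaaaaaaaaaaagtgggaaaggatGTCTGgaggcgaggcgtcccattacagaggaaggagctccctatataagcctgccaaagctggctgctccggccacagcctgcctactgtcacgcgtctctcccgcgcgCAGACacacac
Vcan: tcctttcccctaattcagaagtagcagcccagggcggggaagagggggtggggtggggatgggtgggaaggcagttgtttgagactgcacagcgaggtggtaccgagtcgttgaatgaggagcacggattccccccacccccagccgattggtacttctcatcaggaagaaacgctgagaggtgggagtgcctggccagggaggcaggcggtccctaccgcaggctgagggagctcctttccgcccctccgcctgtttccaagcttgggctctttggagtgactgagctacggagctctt
Thbs2: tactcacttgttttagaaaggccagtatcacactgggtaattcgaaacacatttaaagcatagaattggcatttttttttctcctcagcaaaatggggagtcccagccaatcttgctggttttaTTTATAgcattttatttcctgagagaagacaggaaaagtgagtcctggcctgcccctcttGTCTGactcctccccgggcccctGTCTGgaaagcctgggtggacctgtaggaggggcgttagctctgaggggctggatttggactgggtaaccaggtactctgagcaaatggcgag
Cyr61: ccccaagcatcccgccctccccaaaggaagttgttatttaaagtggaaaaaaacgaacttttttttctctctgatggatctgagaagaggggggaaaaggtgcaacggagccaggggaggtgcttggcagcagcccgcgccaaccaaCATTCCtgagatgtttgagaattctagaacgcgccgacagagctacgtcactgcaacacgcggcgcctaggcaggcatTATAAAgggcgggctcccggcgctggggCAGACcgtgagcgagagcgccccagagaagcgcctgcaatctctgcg

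The motifs searched on both strands were GGAATG of TEAD factors, through which YAP and TAZ act, GTCTG of SMAD factors, which carry TGF-beta signals, TGANTCA of AP-1, TATAAA of the TATA box, GGTCANNNTGACC of the estrogen response element, and the CArG box of SRF. None of these motifs overlapped another in the printed windows. In the Cyr61 window the letters of the TEAD motif began at position -103 on the opposite strand and those of the TATA box at position -25, where position 1 is the transcript start. The Tnc window held the SMAD letters at positions -70 and 40, the Thbs2 window at positions -66 and -43, and the Cyr61 window at position 4. The Vcan window held none of the 6 motifs. Windows were given for 5 of the 8 genes, and among their 7 windows 5 held the SMAD letters, 5 the TATA letters and 1 the TEAD letters. The TATA letters began at position -25 in Cyr61 and at -26 in a Postn window. They began further upstream, at -126 and -205, in the Tnc windows and at -126 on the opposite strand in Thbs2. The windows of the upstream and downstream starts of Tnc overlap and share a TATA site and a SMAD site. The same letters are thus counted in each of them, and the 7 windows are not separate sequences. Among all 32851 promoter windows of the same length, 49.6% held the SMAD letters, 13.6% the TATA letters and 14.7% the TEAD letters. AP-1 (7.81% of all windows), the CArG box (1.63%) and the estrogen response element (0.07%) had no match in the members' windows. A match of letters is a description of the sequence and shows no binding.

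Of the 8 genes, 7 were higher and 1 was lower in knockout osteocytes, and the median difference was 0.15, against -0.01 over all 10916 genes tested. Tnc and Vcan were the 2 genes with all 3 knockout arrays above all 3 control arrays, at 1.34-fold and 1.37-fold. Such a separation was found for 9.23% of all genes in that direction and for 7.76% in the other, in which it held for none of the 8 genes. By limma with Benjamini-Hochberg adjustment over all genes, 0 of the 8 passed an adjusted p of 0.05, and 0% of all genes did (0 of 10916, smallest adjusted p = 0.120). At an unadjusted p under 0.05, limma gave 1151 genes in either direction. Higher at that threshold were 2 of the 8 genes (Tnc and Vcan), against 5.85% of all genes. With 3 arrays a group, the smallest 2-sided p of an exact permutation test is 0.1. In sorted cells measured in bulk, a change in the number of cells of a type and a change in RNA per cell cannot be told apart.

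**Figure D1:**
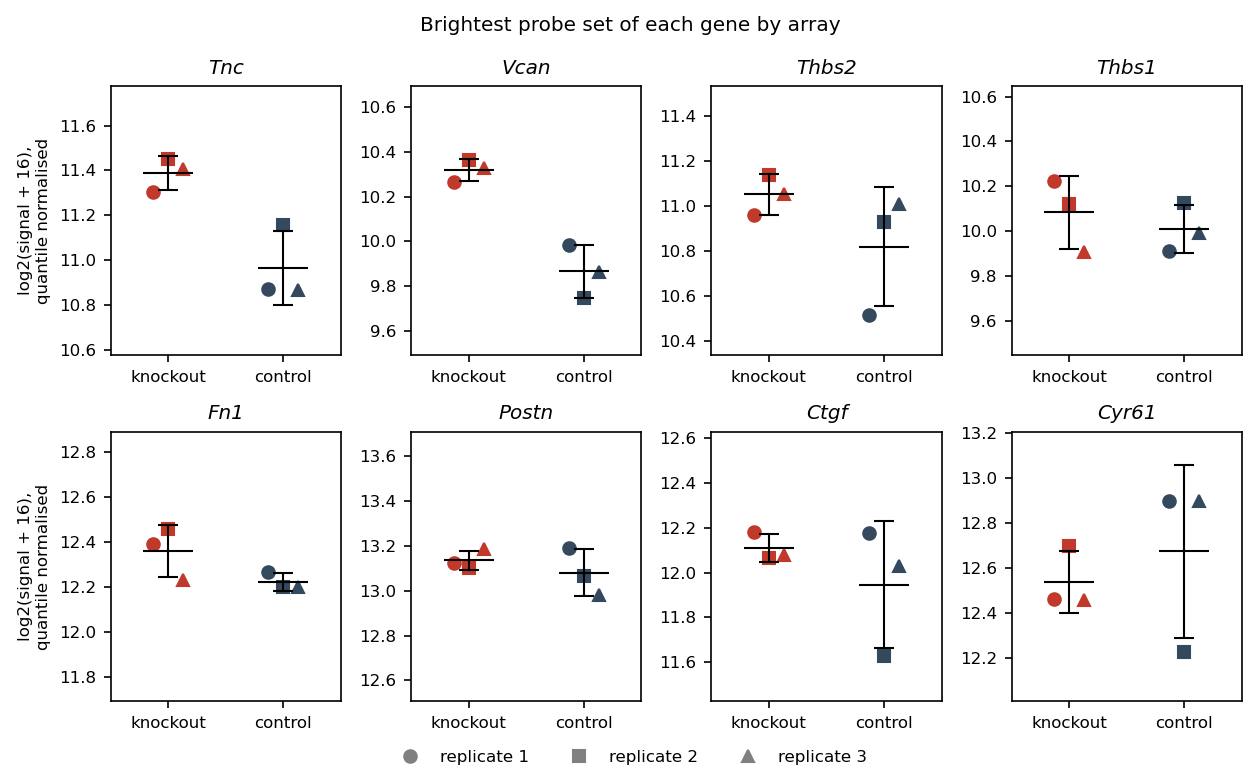
Log2 level (log2 of signal + 16, quantile normalised) of the brightest probe set of each gene, with 1 point per array, the line at the mean and bars of 1 SD (n = 3 arrays each). All knockout points lie above all control points for Tnc and Vcan, and the groups overlap for the other 6 genes.

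Tenascin C is a hexameric glycoprotein of forming bone, tendon and healing tissue that modulates the adhesion of cells to fibronectin. The gene lies at chr4:63959785-64047015 (GRCm38.p6). Its brighter probe set, 1416342_at, had log2 levels of 11.30, 11.45 and 11.41 in knockout arrays and of 10.87, 11.16 and 10.87 in control arrays. The lowest knockout array stood above the highest control array, which was control replicate 2. The difference was 0.42 ± 0.10 (SE, 95% interval 0.19 to 0.66, limma adjusted p = 0.286). The dimmer set, 1456344_at, had log2 levels of 7.36, 7.64 and 7.68 in knockout arrays, against 7.02, 6.65 and 6.74 in control arrays, again without overlap. Its difference was 0.76 ± 0.15 (SE, limma across probe sets, adjusted p = 0.180), the lowest adjusted p among the 18 tested probe sets of the 8 genes. Both Tnc sets thus had the same direction and neither passed the threshold. Averaged over both sets the difference of Tnc was 0.59 (limma adjusted p = 0.182). Without control replicate 2 the brighter set passed, with a difference of 0.52 (limma across genes, adjusted p = 0.0244), and the dimmer did not (0.68, limma across probe sets, adjusted p = 0.0758).

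Versican, at chr13:89655309-89743027, was separated between the groups in each of its tested sets. Its brightest set, 1427256_at, had log2 levels of 10.27, 10.36 and 10.33 in knockout arrays and of 9.98, 9.75 and 9.87 in control arrays. Every knockout value lay above every control value. The difference was 0.45 ± 0.09 (SE, 95% interval 0.24 to 0.66, limma adjusted p = 0.213). Set 1427257_at, which the annotation derives from the same sequence record as the brightest, differed by 0.49 ± 0.14, and 1421694_a_at by 0.21 ± 0.11 (SE, limma adjusted p = 0.286 and 0.532). The remaining 5 sets fell under the level filter, at mean log2 levels between 4.07 and 4.88 in either group. They differed by -0.44 to 0.20. In 1433043_at, which had the most negative difference of these, the knockout arrays lay below the control arrays on the normalised scale. Its deposited signals of 2.0, 4.6 and 14.2 in knockout arrays and of 12.2, 15.8 and 10.1 in control arrays did overlap, so the separation was seen only after normalisation. Taking the mean of all 8 sets, dim ones included, the difference of Vcan was 0.13 (limma adjusted p = 0.711).

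Thrombospondin 2 and thrombospondin 1 are trimeric glycoproteins that bind the receptors CD36 and CD47, and thrombospondin 1 can activate latent TGF-beta. Thbs2 lies at chr17:14665500-14694262 and its 3 probe sets were all bright. In 1450663_at the log2 levels were 10.96, 11.14 and 11.06 in knockout arrays and 10.52, 10.93 and 11.01 in control arrays. These groups overlapped, since control replicate 3 lay above knockout replicate 1, and the difference was 0.23 ± 0.14 (SE, 95% interval -0.08 to 0.55, limma adjusted p = 0.579). In 1422571_at the levels were 11.05, 11.24 and 11.07 in knockout arrays and 10.57, 10.81 and 10.65 in control arrays. In 1447862_x_at they were 11.03, 11.05 and 11.31 in knockout arrays and 10.54, 10.82 and 10.37 in control arrays. Both of these sets were separated upwards, unlike the brightest, although their mean log2 levels were close to it (10.896 and 10.852 against 10.935). They differed by 0.44 ± 0.10 and 0.56 ± 0.13 (SE, limma across probe sets, adjusted p = 0.213 and 0.243). Without control replicate 2 both passed (0.51 and 0.68, limma adjusted p = 0.0366 and 0.0262), while the brightest did not (0.29, limma adjusted p = 0.396). With control replicate 1 left out, the difference of the brightest set was 0.08. Averaged over its 3 sets, with all arrays, the difference of Thbs2 was 0.41 (limma adjusted p = 0.295).

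Thbs1, at chr2:118111876-118127133, showed no common direction. Set 1460302_at had log2 levels of 10.22, 10.12 and 9.91 in knockout arrays and of 9.91, 10.13 and 9.99 in control arrays. The groups overlapped over nearly their whole range, and the difference was 0.07 ± 0.11 (SE, 95% interval -0.18 to 0.33, limma adjusted p = 0.849). Set 1450377_at had 8.13, 7.68 and 7.19 in knockout arrays and 7.96, 8.15 and 7.64 in control arrays, a difference of -0.25 ± 0.23 (SE, limma across probe sets, adjusted p = 0.747). Whether Thbs1 and Thbs2 responded differently was not tested.

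Fibronectin is the main adhesive glycoprotein of early bone matrix. Fn1, at chr1:71585473-71653280, was read by a bright and a dimmer set. In the brighter, 1426642_at, the log2 levels were 12.39, 12.46 and 12.23 in knockout arrays and 12.27, 12.20 and 12.20 in control arrays. Knockout replicate 3 lay within the control range, and the difference was 0.14 ± 0.08 (SE, 95% interval -0.04 to 0.32, limma adjusted p = 0.569). In the dimmer, 1437218_at, the levels were 8.48, 8.89 and 8.88 in knockout arrays and 8.21, 7.96 and 8.004 in control arrays. All knockout values stood above all control values there, by 0.69 ± 0.14 (SE, limma across probe sets, adjusted p = 0.195). Fibronectin is made in splice forms, and the sources used here do not say which of them each probe set reads. Averaged over both sets the difference of Fn1 was 0.42 (limma adjusted p = 0.268).

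Periostin binds collagen, fibronectin and tenascin C and takes part in the crosslinking of collagen. Postn, at chr3:54359267-54391041, has a single probe set, with log2 levels of 13.12, 13.10 and 13.18 in knockout arrays and of 13.19, 13.06 and 12.98 in control arrays. The knockout values lay inside the range of the control values. The difference was 0.06 ± 0.07 (SE, limma adjusted p = 0.820), with a 95% interval of -0.11 to 0.23. With single arrays left out it ran from 0.0080 to 0.11.

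The CCN proteins Ctgf and Cyr61 bind integrins and heparan sulphate and are used as readouts of YAP and TAZ. Ctgf, at chr10:24595442-24598683, had log2 levels of 12.18, 12.06 and 12.08 in knockout arrays and of 12.18, 11.63 and 12.03 in control arrays. Control replicate 2 alone was low, and the other 2 control arrays lay among or near the knockout arrays. The difference was 0.16 ± 0.14 (SE, 95% interval -0.16 to 0.48, limma adjusted p = 0.708), and without control replicate 2 it was 0.0025. Cyr61, at chr3:145646971-145649985, had log2 levels of 12.46, 12.70 and 12.46 in knockout arrays and of 12.90, 12.23 and 12.90 in control arrays in its brightest set, 1416039_x_at. Here too control replicate 2 was the lowest array, and the other 2 controls were the highest. The difference was -0.13 ± 0.18 (SE, 95% interval -0.56 to 0.29, limma adjusted p = 0.830), and -0.36 without control replicate 2 (limma adjusted p = 0.101).

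The other 3 sets of Cyr61 were lower in knockout arrays as well. Set 1438133_a_at differed by -0.14 ± 0.11 (SE, limma across probe sets, adjusted p = 0.684). Set 1457823_at had log2 levels of 9.39, 9.61 and 9.80 in knockout arrays and of 10.46, 9.65 and 10.41 in control arrays. Control replicates 1 and 3 lay above every knockout array while control replicate 2 lay among them. The difference was -0.57 ± 0.21 and that of 1442340_x_at -0.60 ± 0.21 (SE, limma adjusted p = 0.409 and 0.390). These 2 sets come from the same sequence record in the annotation, so they are not independent of each other. Without control replicate 2 both fell, by 0.84 and 0.86 on the log2 scale (limma adjusted p = 0.0187 and 0.0166). Averaged over all its sets, with all arrays, the difference of Cyr61 was -0.36 (limma adjusted p = 0.566). Probe sets ending in _x_at, as 1416039_x_at, 1442340_x_at and 1447862_x_at do, hold probes that can match further sequences.

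**Figure D2:**
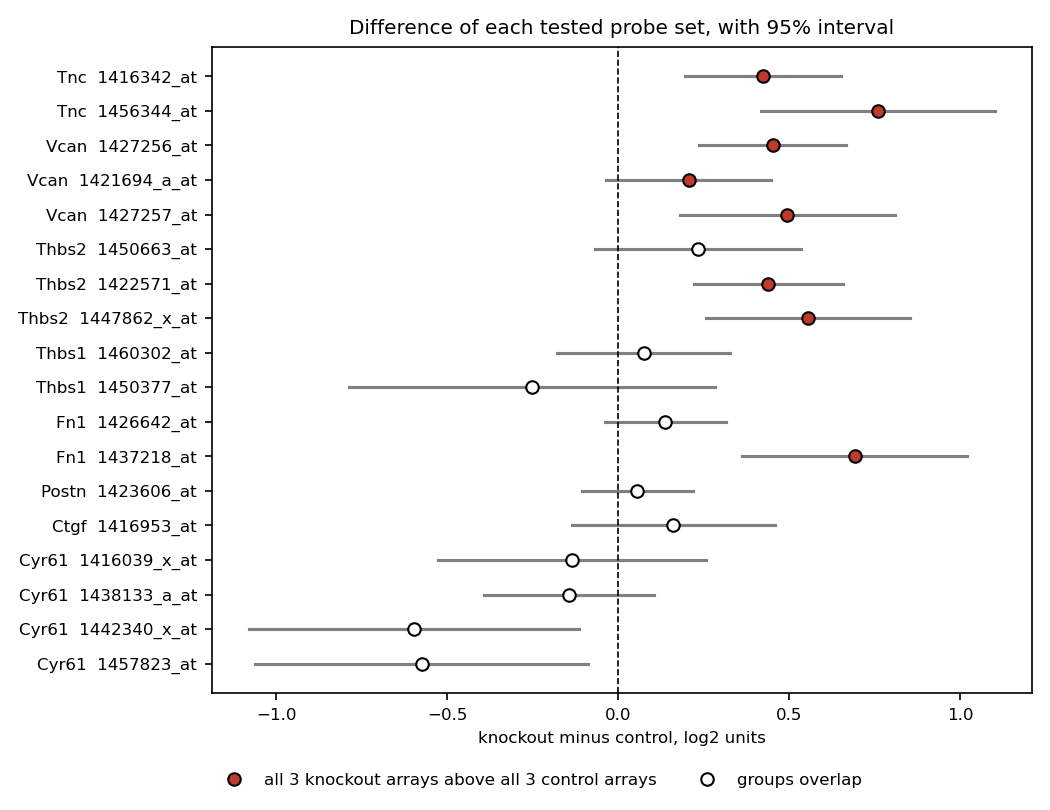
Difference (knockout minus control, log2 units) of the 18 tested probe sets of the 8 genes, with 95% intervals from limma across all probe sets. Filled points mark the 8 sets whose knockout arrays all lie above all control arrays, and the 4 sets of Cyr61 lie below 0.

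Over the 18 tested probe sets of the 8 genes, 13 were higher and 5 lower, and 8 were separated upwards and 0 downwards. Of all 27022 probe sets tested, 9.41% were separated upwards. Probe sets of 1 gene share its transcripts, so these are not 18 separate measurements. By limma 0 of the 18 passed the adjusted threshold, as did 0% of all probe sets (0 of 27022, smallest adjusted p = 0.0800). Without control replicate 2, 5 of the 18 passed: 1 of Tnc and 2 of Thbs2 as higher, and 2 of Cyr61 as lower. In that fit 0.766% of all probe sets passed as higher and 1.14% as lower.

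Leaving out 1 array at a time kept the direction of the brightest set of each of the 8 genes. Tnc ran from 0.37 to 0.52 and Vcan from 0.39 to 0.51. Ctgf ran from 0.0025 to 0.28 and Cyr61 from -0.36 to -0.02, and for both genes the lowest value came from leaving out control replicate 2. Thbs2 ran from 0.08 to 0.33, Fn1 from 0.09 to 0.21 and Thbs1 from 0.0047 to 0.16. Without control replicate 2, 85 genes passed as higher (0.779% of all genes) and 210 as lower (1.92%), and Tnc was the only one of the 8 among them. Leaving out any other array gave 0 genes past the threshold.

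**Figure D3:**
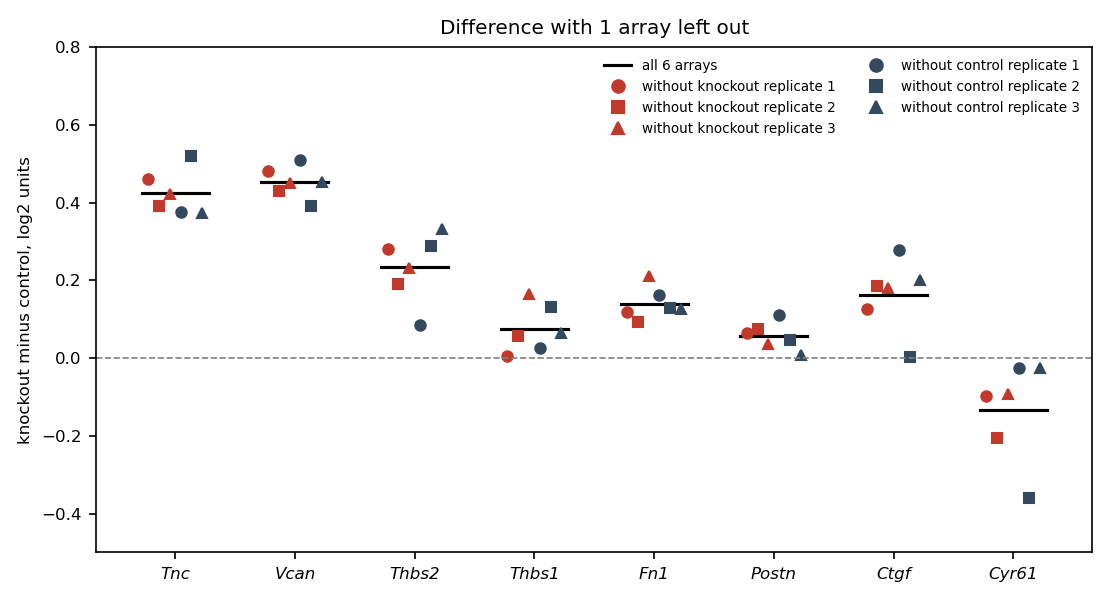
Difference (knockout minus control, log2 units) of the brightest probe set of each gene with all 6 arrays (line) and with 1 array left out (points). Tnc and Vcan lie between 0.37 and 0.52 in every case, and the lowest points of Ctgf and Cyr61 are those without control replicate 2.

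The scaling between arrays moved all 8 genes together. With the deposited scaling and no quantile normalisation, the median of all genes was 0.14 and 76.4% of genes were higher, against -0.01 and 48.3% after quantile normalisation. On that scale Tnc differed by 0.58, Vcan by 0.59, Thbs2 by 0.39, Ctgf by 0.33, Fn1 by 0.32, Postn by 0.25 and Thbs1 by 0.22. Relative to the median of all genes these were 0.45, 0.45, 0.26, 0.20, 0.18, 0.11 and 0.09. Cyr61 turned to 0.06, which was -0.08 relative to that median. No member passed the threshold under that scaling by limma, while Fn1, Thbs1 and Thbs2 joined Tnc and Vcan among the genes with separated groups. Under that scaling 12.4% of all genes were separated upwards.

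Across the 6 arrays, which include both genotypes, the members did not share 1 profile. Tnc followed Vcan with a Pearson r of 0.78 and Thbs2 with 0.68, and Vcan followed Fn1 with 0.73. Ctgf and Cyr61 followed each other with r = 0.62, and Cyr61 ran against Tnc with r = -0.57. These values are a description over 6 arrays that share the genotype split and the low control replicate 2. The genes most like each member over the same arrays were Akt1, a protein kinase, for Tnc (r = 0.995), Myh10, a non-muscle myosin, for Vcan (0.997), and Eng, a TGF-beta co-receptor, for Thbs2 (0.991). For Ctgf it was Nppc, the natriuretic peptide of cartilage (0.994), for Cyr61 Cilp, a cartilage matrix protein (0.988), and for Fn1 Cytl1, a secreted protein of cartilage (0.975). For Postn it was Casp8ap2 (0.997) and for Thbs1 Pex13 (0.994). With 6 arrays such values are common: 73 genes reached r = 0.95 or more with Tnc and 53 with Cyr61.

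The relatives of the members, 14 genes of the same protein families, were also measured. Of the 11 tested, 7 were higher and 4 lower, with a median difference of 0.20. Separated upwards were 3 of them, against 9.23% of all genes tested. The 3 separated were Acan, the aggrecan core protein and relative of versican (1.45 ± 0.18, limma adjusted p = 0.120), Tnn, tenascin N of bone and periosteum (0.57 ± 0.16, adjusted p = 0.327), and Tgfbi, the closest relative of periostin (0.36 ± 0.10, SE, adjusted p = 0.329). Without control replicate 2, Acan and Tnn rose, by 1.39 and 0.74 (limma adjusted p = 0.0182 and 0.0174). Tnxb, the tenascin of loose connective tissue, had a difference of -0.91 ± 0.63 (SE) with all arrays. It fell by 1.74 without control replicate 2 (limma adjusted p = 0.00927). In that fit Tnn and the member Tnc thus passed as higher and Tnxb as lower. Among other thrombospondins, Comp differed by 0.50 ± 0.28, Thbs3 by 0.24 ± 0.21 and Thbs4 by -0.39 ± 0.52 (SE). The further CCN genes differed by 0.20 ± 0.13 for Wisp2, 0.07 ± 0.09 for Wisp1 and -0.20 ± 0.45 for Nov (SE). None of the 11 passed with all 6 arrays. Acan and Comp are also on the list of chondrocyte markers given below.

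Receptors for these proteins went both ways. Of 22 tested among 25 listed, 9 were higher and 13 lower, with a median of -0.05. Separated upwards were 4 of them, against 9.23% of all genes tested. Sdc1, the heparan sulphate co-receptor syndecan 1, differed by 0.58 ± 0.10 (SE, limma adjusted p = 0.183) and rose without control replicate 2 (0.62, adjusted p = 0.0362). Itga9, the integrin chain that binds tenascin C, differed by 0.55 ± 0.21 and Lrp1, the endocytic receptor of thrombospondins and Ctgf, by 0.25 ± 0.10 (SE, limma adjusted p = 0.431 and 0.467). No integrin chain of broad use passed the threshold: Itgav differed by 0.09 ± 0.10, Itgb3 by -0.07 ± 0.14, Itgb5 by 0.27 ± 0.15, Itga5 by -0.17 ± 0.19 and Itgb1 by -0.16 ± 0.09 (SE). Itga8, which pairs with the beta 1 chain, differed by -0.45 ± 0.20 (SE), and fell by 0.68 without control replicate 2 (limma adjusted p = 0.0291). The muscle integrin chain Itga7 fell there too, by 0.84 (adjusted p = 0.0350). The thrombospondin receptors Cd36 and Cd47 differed by -0.26 ± 0.34 and 0.09 ± 0.09, and Cd44, a hyaluronan receptor, by 0.16 ± 0.13 (SE).

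**Figure D4:**
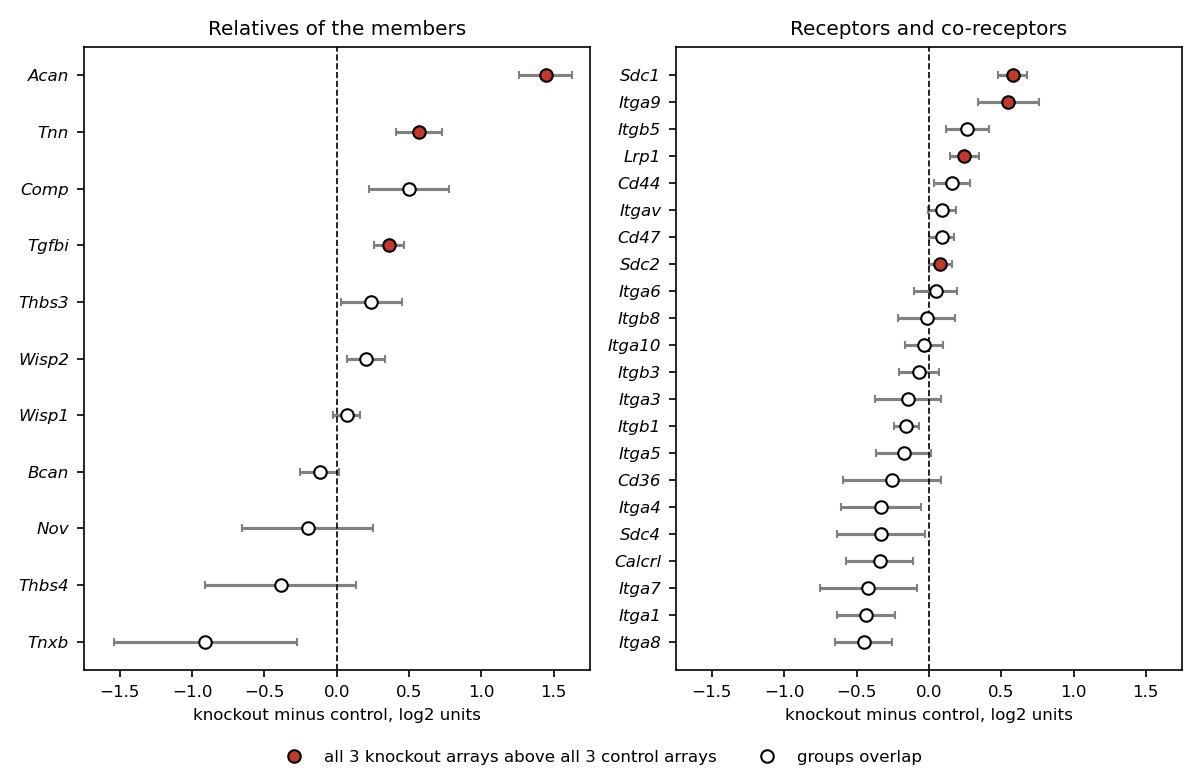
Difference (knockout minus control, log2 units) of the 11 tested relatives and the 22 tested receptors, with bars of 1 SE from limma. Filled points mark genes whose knockout arrays all lie above all control arrays: 3 relatives and 4 receptors.

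Matrix partners, the genes whose products bind, cross-link or cut these proteins, numbered 23 tested, of which 12 were higher and 11 lower (median 0.04). Col12a1, a fibril-associated collagen that binds tenascins, differed by 0.79 ± 0.12 (SE, limma adjusted p = 0.183), and it rose by 0.89 without control replicate 2 (adjusted p = 0.0135). Hapln1, the link protein that ties versican and aggrecan to hyaluronan, differed by 0.99 ± 0.20, Fbln1, a fibulin that binds versican and fibronectin, by 0.39 ± 0.12, and the protease Bmp1 by -0.23 ± 0.08 (SE, limma adjusted p = 0.213, 0.376 and 0.417). Hapln1 is also on the list of chondrocyte markers given below. Of 14 TGF-beta signalling genes, 10 were higher and 4 lower (median 0.07). The ligand Tgfb2 differed by 0.51 ± 0.15 and Ltbp2, a relative of the proteins that hold latent TGF-beta, by 1.01 ± 0.26 (SE, limma adjusted p = 0.367 and 0.311). The receptor Tgfbr2 and the inhibitory Smad7 differed by 0.27 ± 0.12 and 0.22 ± 0.10 (SE).

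The list of YAP, TAZ and SRF pathway genes, which holds regulators of Ctgf and Cyr61, had 15 of its 25 tested genes higher and 10 lower (median 0.04). The largest difference among its 4 genes with the smallest p was that of Filip1l, at -0.71 ± 0.14 (SE, limma adjusted p = 0.202). It fell by 0.84 without control replicate 2 (adjusted p = 0.0152). Wwtr1, which encodes TAZ, differed by 0.18 ± 0.08, the kinase Lats1 by 0.26 ± 0.11 and the SRF coactivator Mkl2 by 0.22 ± 0.10 (SE). Immediate early genes, a class that enzyme digestion can induce and to which Cyr61 itself belongs, numbered 20, of which 15 were higher and 5 lower (median 0.14). Nr4a1 differed by 0.35 ± 0.11 and Ier3 by 0.51 ± 0.19, while Klf6 and Dusp1 differed by -0.29 ± 0.09 and -0.23 ± 0.09 (SE). By limma with all arrays 0 genes of these 6 lists passed.

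Markers of several other cell types differed between arrays, some along the genotype and some through single control arrays. The mean centred level of the 8 genes was 0.08, 0.14 and 0.05 in knockout arrays and -0.06, -0.15 and -0.06 in control arrays. Chondrocyte markers, of which 14 of 16 were higher with a median of 1.16, had levels of 0.74, 0.89 and 0.01 in knockout arrays and of -0.09, -0.998 and -0.55 in control arrays. These groups did not overlap, as for the mean of the 8 genes, and knockout replicate 3 was the lowest knockout array for both means. The list's summed deposited signal was 10232.2 to 13297.6 in knockout arrays and 6394.8 to 9723.2 in control arrays. Tnc, Vcan and Fn1 are also made by cartilage cells. In their brightest sets the lowest knockout array was replicate 1 for Tnc and Vcan and replicate 3 for Fn1. Among control arrays, replicate 2 was the highest for Tnc and the lowest for Vcan in these sets, and the lowest for the chondrocyte list. The order of arrays depended on the probe set. In the dimmer sets of Tnc and Fn1, control replicate 2 was the lowest control (6.65 and 7.96) and knockout replicate 1 the lowest knockout array (7.36 and 8.48). In the other tested sets of Vcan, control replicate 3 was the lowest control. The part of chondrocyte RNA in the values of these genes was not tested.

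Of 8 meningeal markers 6 were higher and 2 lower (median 0.40), and 5 were separated upwards, against 9.23% of all genes tested. Among these 5 were Slc47a1, an exporter of organic cations (1.89 ± 0.18, SE), and Cldn11, a tight junction protein (1.20 ± 0.23, SE). The mean centred level of the 8 meningeal markers was 0.53, 0.13 and 0.04 in knockout arrays and -0.49, -0.41 and 0.19 in control arrays. Ptgds, a prostaglandin D synthase named here after its values were seen, had a log2 level of 9.64 in control replicate 3, against 5.74 to 8.11 in knockout arrays and 6.05 and 7.38 in the other controls. Over all 8 markers the groups overlapped, since control replicate 3 lay above knockout replicates 2 and 3. Without Ptgds the level of the remaining 7 was 0.48, 0.31 and 0.25 in knockout arrays and -0.40, -0.49 and -0.14 in control arrays. That separation depends on leaving out a marker chosen by its values, so it does not show that the list followed the genotype. The part of meningeal RNA in the values of the 8 genes was not tested. Pericyte and smooth muscle markers, were lower for 11 of 12, with a median of -0.45. Their level was -0.16, -0.23 and -0.26 in knockout arrays and 0.42, -0.32 and 0.54 in control arrays, so control replicate 2 lay below every knockout array. This level mixes unlike genes. Rgs5 and Kcnj8, known from pericytes, were separated downwards on all arrays (-0.59 ± 0.07 and -0.62 ± 0.13, SE), as were Abcc9 and Notch3. Cspg4 and Pdgfrb, also known from pericytes, overlapped, at 0.04 ± 0.11 and -0.02 ± 0.08 (SE), so the pericyte markers did not all fall. The smooth muscle genes Acta2 and Tagln overlapped and were lowest in control replicate 2. Skeletal muscle markers had -0.60, -0.63 and 0.85 in knockout arrays and 1.96, -3.47 and 1.89 in control arrays. Fibroblast and periosteal markers, 9 of them higher and 9 lower, had -0.07, -0.10 and -0.02 in knockout arrays and 0.36, -0.49 and 0.32 in control arrays. The brightest set of Cyr61 was likewise highest in control replicates 1 and 3 and lowest in control replicate 2. Osteoblast markers split into 4 higher and 4 lower, and endothelial markers into 7 and 4. Macrophage and osteoclast markers split into 6 higher and 4 lower, with a mean centred level of 0.30, 0.21 and -0.22 in knockout arrays and -1.14, 0.51 and 0.34 in control arrays. Control replicate 1 was the lowest array for this list and for the platelet list (-0.49), and among control arrays also for Thbs1 and Thbs2 in their brightest sets. The part of those cell types in the thrombospondin values was not tested. Of 9 platelet and megakaryocyte markers, a cell type rich in Thbs1, 3 were tested and all 3 were higher, with a median of 0.06. None of the lists had a marker at a deposited signal of 0 on any array, and none had a member past the threshold with all 6 arrays.

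**Figure D5:**
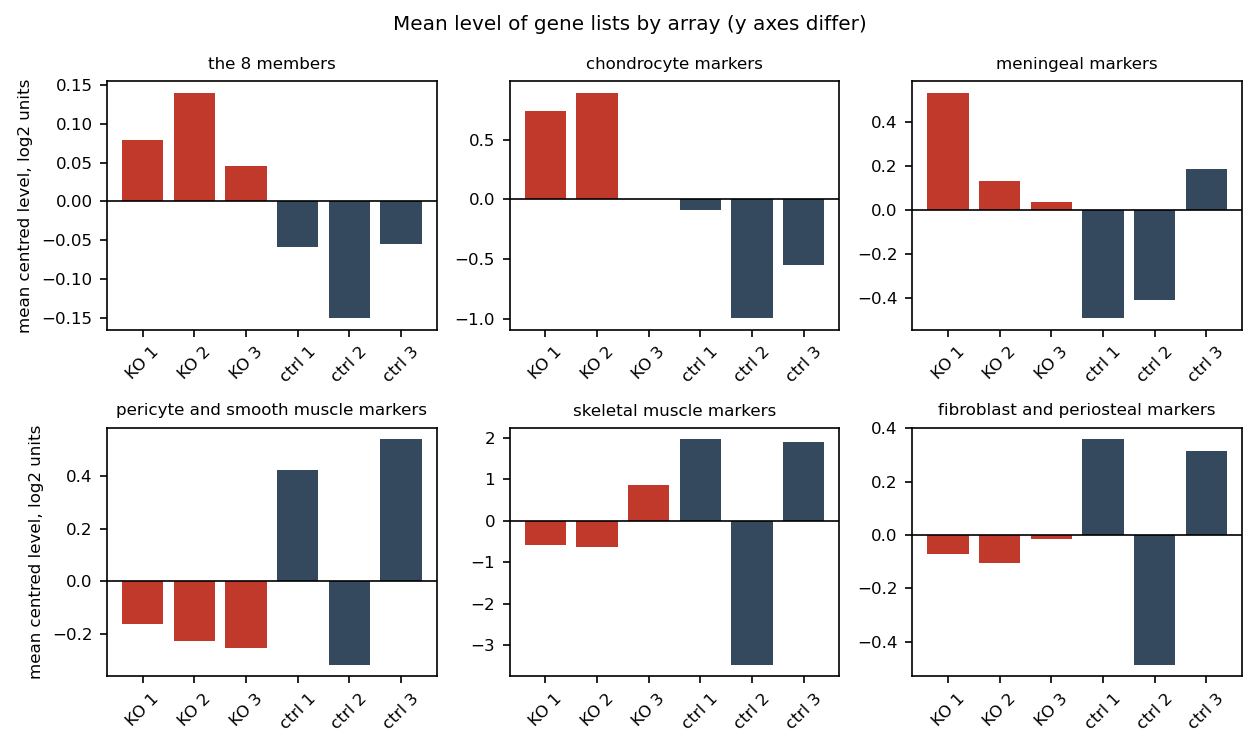
Mean level of each gene list on each array, in log2 units relative to each gene's mean over the 6 arrays, with a y axis of its own for each list. Knockout arrays (KO) lie above control arrays (ctrl) for the 8 genes and the chondrocyte markers, and control replicate 2 is the lowest array for the muscle, pericyte and fibroblast lists.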

How the data were processed

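The authors deposited 1 intensity per probe set and array on a linear scale, per the values of the deposited table. Per the submitters' processing notes the tool was GCOS, the array maker's software (version not given). The background correction and the scaling target are not stated in those sources, and detection calls were not used. Array medians of the deposited intensity were 20.2 to 28.6 in knockout and 18.7 to 22.7 in control arrays, and the number of arrays limits the precision.

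Of 45101 probe sets, 64 control sets were left out. The platform annotation gave 1 gene for 34945 of the rest, several for 932, and 9160 are unnamed here. Gene identifiers of 34741 sets matched the RefSeq table of GRCm38.p6, which gave gene positions and current symbols. Intensities were quantile normalised and taken as log2(signal + 16), so fold changes of dim genes are understated. The brightest probe set by mean stood for its gene. A filter removed the lowest 40% of genes by mean (7277, below 5.38), and the same share of probe sets in a second fit.

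The genotypes were compared with limma 3.58.1 under R 4.3.3 (lmFit, eBayes with trend, 2-sided), without covariates, with Benjamini-Hochberg adjustment over all 10916 genes or 27022 probe sets and a threshold of 0.05. Gene lists are described by counts and medians and were not tested. Levels of lists by array are means over tested genes, each relative to its mean over the arrays. The fit was tested on simulated data. The 8 genes, the lists and the tests were chosen with earlier results of these data known. Named genes were all 8 members with every tested probe set, any relative or receptor, of other lists up to 4 with the smallest p, and for each member the most similar of the 3 genes with the highest r. Ptgds, Acta2, Tagln, Cspg4 and Pdgfrb were named beyond this rule. Python 3.11.15 with pandas 2.3.3 and matplotlib 3.10.9 handled tables and figures.

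Replicate numbers are shared between the genotypes in the labels. Deviations from the group means of same-numbered arrays correlated with r = -0.38, 0.10 and -0.04, so the numbers were not taken to pair arrays.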

Additional observations from a re-analysis of the deposited data

How the results depend on the processing

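Each gene was refitted under 18 alternatives: 2 other scalings, pseudocounts of 1 and 64, no filter and a filter on the lowest 60%, the mean of all probe sets, probe sets on their own, array weights, a replicate block, no trend, no _x_at or _s_at sets, and each array left out. Postn, Tnc, Vcan, Thbs2, Fn1 and Ctgf kept their direction under all 18, and none of the 8 genes passed the threshold except Tnc without control replicate 2 (0.52, limma adjusted p = 0.0244, range over the alternatives 0.0244 to 0.709). Tnc ran from 0.37 to 0.52 with single arrays left out. Cyr61 was 0.056 with the deposited scaling, where the median of all genes moved to 0.14. Thbs1 was -0.088 as the mean of its probe sets, which include the dimmer set with a negative difference. The number of genes past the threshold was 0 with all arrays, 30 with the deposited scaling (30 higher, 0 lower), and 0 to 295 with single arrays left out. The 295 (85 higher, 210 lower) came without control replicate 2, and the cause was not tested. With the replicate block 0 genes passed (smallest limma adjusted p = 0.422), Tnc had an adjusted p of 0.562 and Vcan of 0.573, and no call changed. Between 38.6% and 46.9% of deposited signals on an array lay under 16, and the 5 dim sets of Vcan were not tested. With 3 arrays per group a difference such as that of Fn1 in its bright set (0.14 ± 0.08, SE) did not pass.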
